A study of Mus musculus with 6 samples.

Results

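The imprinted growth genes examined here are Peg3, Plagl1, Igf2, H19, Igf2r, Dlk1, Meg3, Grb10 and Mest. Genomic imprinting silences 1 parental copy of a gene according to marks laid down in the egg or the sperm. Many imprinted genes set the growth of the embryo and placenta, and paternally expressed ones such as Igf2 tend to promote growth where maternally expressed ones such as Igf2r tend to restrain it. In the male germ line the marks are erased and set anew, while the somatic cells of the testis keep the pattern inherited from both parents. The genes were taken by symbol or Ensembl ID, and 7 of the 9 were matched among the 22274 genes of the deposited table. H19 and Meg3, both long non-coding RNAs, were not analysed here. All 7 matched genes passed the filter on low counts, which left 14424 genes for testing. The set was chosen by its knockout-control differences in the counts of these same libraries, so the differences of the 7 genes are a description and not a test.

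The libraries are messenger RNA of whole testes from mice at day 9, 3 with a germ-cell conditional knockout (cKO) of Dcaf2 and 3 from controls. The knockout carried the Dcaf2 fl/fl allele with Stra8-Cre, whose recombinase is driven in spermatogonia, so Sertoli, Leydig and other somatic cells are not expected to lose the gene. The genotype of the controls is labelled only as control, and the labels say neither from which event days were counted nor whether a library is 1 animal or a pool. DCAF2 is the receptor through which the ubiquitin ligase CRL4 marks proteins for degradation, and the study asked whether it is needed for spermatogenesis. P-values therefore measure the spread between libraries, which can be partly technical.

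The libraries held 15407007 to 17564942 counts in the knockouts and 16097362 to 18372964 in the controls. The transcript of Dcaf2, named Dtl in the annotation, was at 41.7, 43.8 and 51.5 CPM (counts scaled to library size) in the knockouts, against 42.6, 50.3 and 77.4 CPM in the controls. These ranges overlapped, and a whole-gene count in whole testis checks the labels only loosely. With every library kept, Dtl was at -0.31 on the log2 scale and missed the threshold (edgeR adjusted p = 0.281). Omitting Control library 1 moved this to -0.51 (adjusted p = 0.0321), and no other omission gave a call. Omitting Control library 3 left almost no difference (-0.02, adjusted p = 0.923). Of all tested genes 3607 passed (25.0%), 1599 higher in the knockouts (11.1%) and 2008 lower (13.9%, edgeR adjusted p under 0.05). Leaving out a library moved this number, to 1444, 1355 and 1933 for knockout libraries 1, 2 and 3, and to 5255, 4277 and 1795 for Control libraries 1, 2 and 3. Control libraries 1 and 2 stood farther from the rest of their group than the other 4, with a root mean square difference of 0.46 and 0.40 in log2 CPM, where the others were at 0.29 to 0.32. The pan-germ-cell genes summed to 860 to 1066 CPM in the knockouts and 2274 to 3073 CPM in the controls, and 24 of the 26 fell. Fewer cells of a type and less RNA per cell cannot be told apart in such bulk samples.

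The start regions of the 2 genes that differed most, and of the gene whose groups overlapped, are shown because imprinted control acts through the methylation of CpG dinucleotides. They were taken by annotated start and not as imprint control regions, and methylation was not measured. Each is 300 bases from RefSeq (GRCm38.p6), running from 250 bases before the annotated start to 50 after it, 5′ to 3′ on the strand of the gene, with every CpG in capitals. Peg3 lies on the minus strand (chr7:6730370-6730669), and Plagl1 (chr10:13090582-13090881) and Dlk1 (chr12:109452573-109452872) on the plus strand.
Peg3: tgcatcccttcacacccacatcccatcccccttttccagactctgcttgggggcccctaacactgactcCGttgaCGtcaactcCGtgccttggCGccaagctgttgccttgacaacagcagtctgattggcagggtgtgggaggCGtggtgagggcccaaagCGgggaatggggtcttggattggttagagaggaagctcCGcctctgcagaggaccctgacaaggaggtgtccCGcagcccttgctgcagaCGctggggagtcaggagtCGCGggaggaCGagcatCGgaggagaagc
Plagl1: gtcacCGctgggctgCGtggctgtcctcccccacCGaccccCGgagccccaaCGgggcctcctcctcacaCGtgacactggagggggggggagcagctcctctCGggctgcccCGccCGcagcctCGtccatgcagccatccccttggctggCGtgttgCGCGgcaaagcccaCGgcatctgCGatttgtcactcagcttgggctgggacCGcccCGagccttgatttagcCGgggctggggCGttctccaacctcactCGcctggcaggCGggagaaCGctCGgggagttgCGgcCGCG
Dlk1: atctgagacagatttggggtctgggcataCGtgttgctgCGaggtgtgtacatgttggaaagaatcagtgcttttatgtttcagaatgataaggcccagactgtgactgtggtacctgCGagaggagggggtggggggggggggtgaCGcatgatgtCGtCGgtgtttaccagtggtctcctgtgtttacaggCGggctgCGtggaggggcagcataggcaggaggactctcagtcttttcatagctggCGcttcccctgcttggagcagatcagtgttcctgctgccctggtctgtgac

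The Peg3 window held 13 CpGs, the Plagl1 window 26 and the Dlk1 window 9. Over 32851 start regions of the same length the median was 7 CpGs, with quartiles of 3 and 20, so only Plagl1 of these 3 lay above the upper quartile. RefSeq start regions were matched for 8 of the 9 genes, Meg3 among them, with 15 windows in all. The richest were the first of Grb10 with 45 CpGs and that of Igf2r with 34. Igf2 had 4 start regions, with 2, 14, 24 and 7 CpGs from the most upstream to the most downstream. The 2 of Grb10 had 45 and 9. For description, 3 letter patterns were searched on both strands of all windows. The palindrome GGGGCCCC was found once in the Peg3 window and in no other of the 15, and 1.08% of all windows held it. The core pattern of the factor YY1, GCCATNTT, was in 6.05% of all windows and in none of the 15, and TATAAA was in 13.6% of all windows and, among the 15, only in the upstream window of Meg3. A match describes the letters of a window and shows no binding.

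Peg3 and Plagl1 had the largest log2 fold changes of the imprinted growth genes. The set was chosen with these differences known, and the 95% intervals of both overlapped those of Igf2, Igf2r and Mest. Plagl1 was 1.78-fold and Peg3 1.77-fold higher in knockout testes, and the 3 knockout libraries were close together for both. Plagl1 (ENSMUSG00000019817, chromosome 10) encodes a zinc finger transcription factor, also known as Zac1, that restrains cell division and regulates other imprinted genes. It was at 323, 330 and 339 CPM in knockout libraries 1, 2 and 3, against 163, 180 and 216 CPM in Control libraries 1, 2 and 3. Every knockout library lay above every control, and the knockouts spanned a much narrower range. The means were 331 ± 8.11 CPM in the knockouts and 186 ± 27.3 CPM in the controls (SD, n = 3 each), and the log2 fold change was 0.83 with an SE of 0.116 (95% interval 0.57 to 1.09).

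Peg3 (ENSMUSG00000002265, chromosome 7) encodes a large zinc finger protein that is expressed from the paternal copy and acts in fetal growth and maternal behaviour. It was at 447, 437 and 455 CPM in the knockouts, against 215, 289 and 251 CPM in the controls. Again the groups did not overlap, and the lowest knockout library was well above Control library 2, the highest of the controls. The means were 446 ± 9.30 CPM in the knockouts and 252 ± 37.1 CPM in the controls (SD, n = 3 each), and the log2 fold change was 0.83 with an SE of 0.117 (95% interval 0.56 to 1.09). Ordered by log2 fold change from the highest down, Plagl1 ranked 298 and Peg3 301 among the 14424 tested genes.

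Igf2 and its receptors come next. Igf2 (ENSMUSG00000048583, chromosome 7) encodes insulin-like growth factor 2, a paternally expressed growth factor. It was at 260, 269 and 301 CPM in the knockouts, against 180, 167 and 230 CPM in the controls. The groups did not overlap, but Control library 3 came close to the lowest knockout library. The log2 fold change was 0.52 (SE 0.131, 95% interval 0.23 to 0.82). Igf2r (ENSMUSG00000023830, chromosome 17) encodes the receptor that takes IGF2 up for breakdown in lysosomes and sorts lysosomal enzymes, and it is expressed from the maternal copy in most mouse tissues. It was at 214, 228 and 241 CPM in the knockouts, against 118, 204 and 163 CPM in the controls. Control library 2 was nearly as high as the lowest knockout library, and Control library 1 was far below both of the other controls. The log2 fold change was 0.50 (SE 0.175, 95% interval 0.10 to 0.89), and it was 0.29 without Control library 1 and 0.69 without Control library 2.

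Grb10 (ENSMUSG00000020176, chromosome 11) encodes an adaptor that binds the insulin and IGF1 receptors and restrains growth, expressed from the maternal copy in most tissues. It was at 151, 157 and 174 CPM in the knockouts, against 126, 143 and 138 CPM in the controls. The groups were adjacent without overlapping, at 0.25 on the log2 scale (SE 0.0977, 95% interval 0.03 to 0.47). Mest (ENSMUSG00000051855, chromosome 6), a paternally expressed gene of the mesoderm whose protein resembles hydrolases, was at 100, 98.9 and 114 CPM in the knockouts, against 84.2, 60.3 and 72.2 CPM in the controls. No control reached the lowest knockout library. Its log2 fold change was 0.53 (SE 0.130, 95% interval 0.24 to 0.82).

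Dlk1 (ENSMUSG00000040856, chromosome 12) encodes a transmembrane protein of the Notch ligand type that keeps precursor cells undifferentiated. It was at 410, 377 and 394 CPM in the knockouts, against 425, 250 and 335 CPM in the controls. Control library 1 was above every knockout library, so the groups overlapped. The log2 fold change was 0.23 (SE 0.169, 95% interval -0.16 to 0.61), with 0.40 without Control library 1 and 0.04 without Control library 2.

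**Figure D1:**
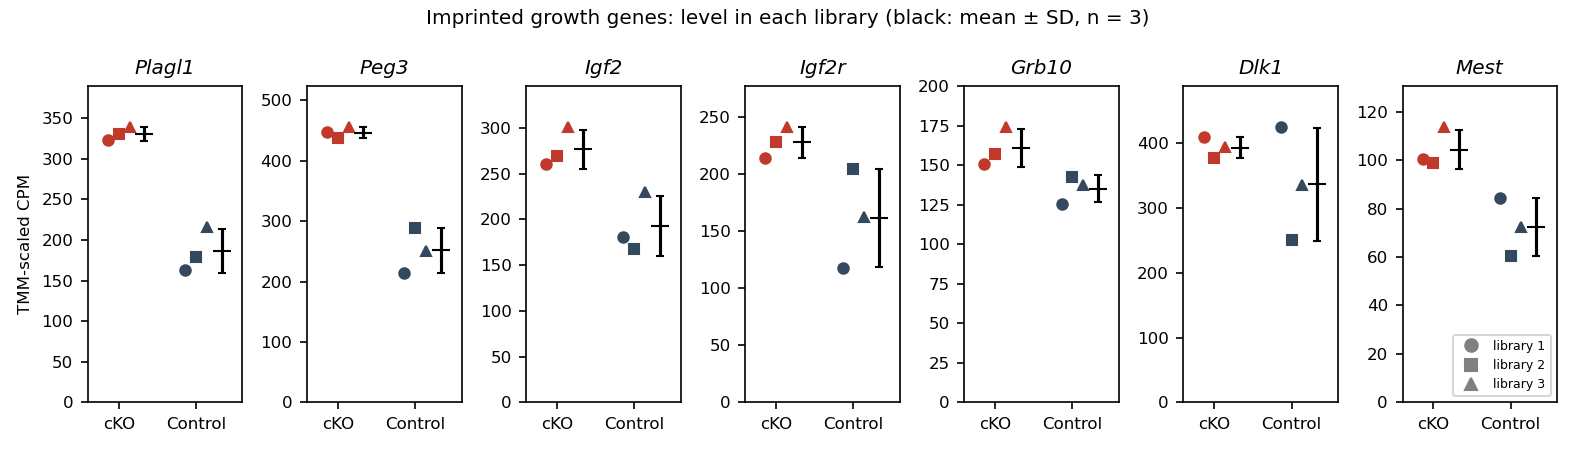
TMM-scaled CPM (vertical axis, from 0, own scale per gene) of the 7 imprinted growth genes in the 3 cKO libraries (red, left) and the 3 control libraries (dark, right), with marker shape for the library number and mean ± SD (n = 3) in black. The cKO points lie above all controls except for Dlk1, where Control library 1 at 425 CPM is the highest point.

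All 7 genes averaged higher in the knockouts. Their median was 0.52 on the log2 scale, where that of all tested genes was 0.03. The knockout libraries lay above all controls for 6 of the 7, which was so for 22.5% of all tested genes (in the other direction it was 22.1%). By the fit over all genes 4 of the 7 passed the threshold (Plagl1, Peg3, Igf2 and Mest), beside 11.1% of all tested genes that passed as higher. Since the genes were chosen with this contrast known, nothing is read from these counts. The same holds for the calls with 1 library left out, which reuse these libraries and are given as description only. Plagl1 and Peg3 passed whichever library was left out. Without knockout library 1, 2 or 3 they were the 2 genes that passed, without Control library 3 there were 3 (with Igf2), without Control library 2 there were 5 (with Igf2r), and without Control library 1 there were 6 (with Igf2r and Dlk1).

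Markers of several somatic cell types were also higher in the knockouts with TMM scaling, where 11.1% of all tested genes rose. Of 12 interstitial stroma genes 7 rose (edgeR adjusted p under 0.05, median log2 fold change 0.41), and the list summed to 11750 to 12107 CPM in the knockouts and 7653 to 9215 CPM in the controls. This list shares Igf1, which rose, with the IGF2 partners below, and Dcn, which did not pass, with the other imprinted genes. Of 25 Sertoli cell genes 10 rose (median 0.44), with sums of 9688 to 10790 CPM in the knockouts and 7022 to 9555 CPM in the controls. Of 13 tested Leydig cell genes 4 rose (median 0.50), with sums of 1514 to 1588 CPM in the knockouts and 813 to 1336 CPM in the controls, the highest control being library 1. These counts moved with single libraries, for stroma to 3 without any 1 knockout library, for Sertoli cells to 4, 2, 6 and 5 without knockout library 1, 2 or 3 or Control library 3 and to 19 without Control library 1, and for Leydig cells to 11 without Control library 1, while the medians stayed at 0.32 to 0.82. Of 8 endothelial genes 4 rose (0, 1 and 2 without knockout library 1, 2 or 3), and of 10 macrophage and leukocyte genes 2 rose (4 when Control library 1 was omitted, and 1 when knockout library 1 or 2 or Control library 2 or 3 was). Endothelial genes summed to 294 to 319 CPM in the knockouts and 214 to 241 CPM in the controls, and macrophage and leukocyte genes to 168 to 215 CPM in the knockouts and 119 to 156 CPM in the controls. Peritubular myoid genes did not rise as a list: 1 of 8 rose and 0 fell, and their median of 0.04 was near the 0.03 of all tested genes. They summed to 1658 to 1713 CPM in the knockouts and 1585 to 1631 CPM in the controls. Among 5 tested erythroid genes 0 rose and 0 fell (median -0.21). The erythroid list summed to 228 to 435 CPM in the knockouts and 166 to 659 CPM in the controls, highest in Control library 1. Relative to the Sertoli cell genes, edgeR called 1 of the 13 Leydig cell genes higher, and 0 of the stroma, endothelial and macrophage genes, also at an unadjusted p under 0.05, while 4 of the 8 myoid genes were lower. In that scaling 34 of all 14424 tested genes were higher and 4326 lower. Relative to the pan-germ-cell genes, every tested gene of these lists was called higher, as were 13458 of all tested genes, so nothing is read from these counts. Every listed marker had counts in at least 1 library. The part of each cell type in the levels of the imprinted growth genes was not tested.

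The differences moved with what the libraries were scaled to. Relative to the Sertoli cell genes, which lowered the median of all genes to -0.35, Peg3 and Plagl1 were each at 0.43 on the log2 scale, Mest at 0.17, Igf2 at 0.13 and Igf2r at 0.08, while Grb10 and Dlk1 turned to -0.14 and -0.13. All 7 still lay above the median of all genes. In that scaling edgeR called 0 of the 7, and 0 had an unadjusted p under 0.05. Of all 14424 tested genes it called 34 higher and 4326 lower. The other tools were run with their own or TMM scaling only and called 5 (DESeq2) and 4 (limma-voom) of the 7. When set to the pan-germ-cell genes instead, with a median over all genes of 1.55, the 7 were at 1.71 (Dlk1) to 2.37 (Peg3). With total-count scaling they were at 0.16 (Dlk1) to 0.76 (Peg3 and Plagl1).

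**Figure D2:**
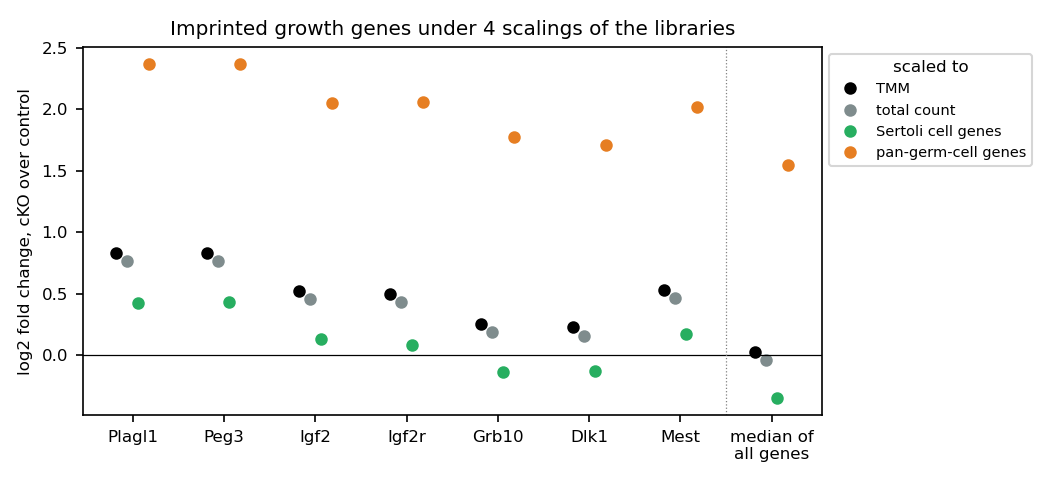
Log2 fold change, cKO over control (vertical axis), of the 7 imprinted growth genes and the median of all tested genes under 4 scalings of the libraries (colours). The order changes little while the whole set shifts with the median of all genes, from -0.35 with Sertoli cell genes to 1.55 with pan-germ-cell genes, and Grb10 and Dlk1 fall below 0 with Sertoli cell genes.

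Levels of different genes were compared per transcript length, with the authors' FPKM values (fragments scaled to transcript length and library depth). In the knockouts Dlk1 was the highest of the 7 at 231 ± 12.2 FPKM, followed by Plagl1 at 72.1 ± 2.18, Igf2 at 72.0 ± 5.80, Peg3 at 50.2 ± 1.22, Mest at 39.8 ± 3.15, Grb10 at 31.1 ± 2.32 and Igf2r at 25.1 ± 1.40 FPKM (SD, n = 3 each). Only the neighbours Plagl1 and Igf2 overlapped there. In the controls the order was Dlk1 at 208 ± 57.6 FPKM, Igf2 at 56.0 ± 10.4, Plagl1 at 41.1 ± 7.45, Peg3 at 29.5 ± 3.91, Mest at 28.8 ± 5.14, Grb10 at 27.8 ± 0.977 and Igf2r at 18.6 ± 4.68 FPKM (SD, n = 3 each). The ranges of Igf2 and Plagl1 overlapped, as did those of Plagl1 with Peg3 and Mest, and those of Peg3, Mest and Grb10. Within each control library, however, Igf2 was above Plagl1 and Plagl1 above Peg3. The order of Peg3, Mest and Grb10 changed between control libraries and is not resolved. By mean FPKM over the 6 libraries Dlk1 was above 98.5% of all tested genes, Igf2 above 92.2%, Plagl1 above 90.8%, Peg3 above 85.1% and Igf2r, the lowest of the 7, above 70.0%.

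The ratio of the ligand to its clearing receptor varied among controls. Igf2 exceeded Igf2r in FPKM by 2.89, 2.76 and 2.97 times in knockout libraries 1, 2 and 3, against 4.28, 1.93 and 3.43 times in Control libraries 1, 2 and 3. The knockout ratios lay inside the range of the controls. Peg3 over Plagl1 was at 0.698, 0.659 and 0.732 in the knockouts, against 0.768, 0.789 and 0.623 in the controls, which also overlapped.

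The controls differed among themselves more than the knockouts did for 6 of the 7 genes, all except Grb10, and 73.5% of all tested genes had their larger SD in the controls. The SD of log2 CPM was 0.03 (Peg3) to 0.11 (Igf2) in the knockouts, and 0.10 (Grb10) to 0.40 (Igf2r) in the controls, where the medians over all tested genes were 0.10 and 0.20. Within the controls the genes split by library. In Control library 1 the deviation from the group mean on the log2 scale was -0.42 for Igf2r, -0.22 for Peg3, -0.18 for Plagl1 and -0.11 for Grb10, whereas it was 0.37 for Dlk1 and 0.23 for Mest. Control library 2 had nearly the mirror image for 4 of these, with 0.37 for Igf2r, 0.21 for Peg3, -0.39 for Dlk1 and -0.25 for Mest. The deviations within a group sum to 0, and Control library 3 was at only 0.01 to 0.04 for these 4. The mirror image follows from that and is no separate observation. Control library 3 was the highest control for Igf2 and Plagl1, at 0.27 and 0.23. Among the knockouts, library 3 was the highest for 6 of the 7 genes, which was so for 38.6% of all tested genes.

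**Figure D3:**
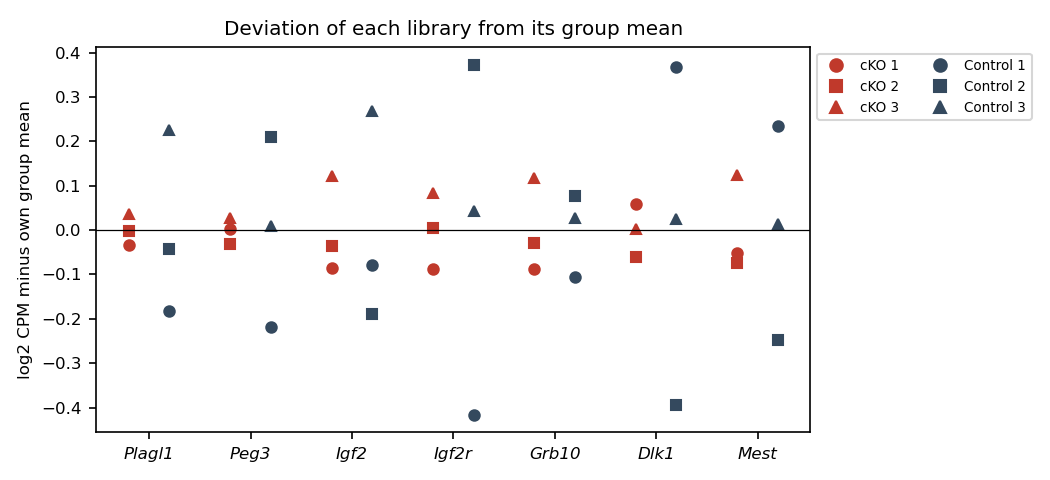
Log2 CPM of each library minus the mean of its own group (vertical axis) for the 7 imprinted growth genes, cKO libraries in red and left, control libraries dark and right, with marker shape for the library number. Control library 1 (circles) is low for Igf2r and Peg3 and high for Dlk1 and Mest, and Control library 2 (squares) the reverse, while the highest cKO point is 0.12 above 0.

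Counts and FPKM together give the transcript length that the authors' quantification assigned to each gene in each library, which varies where several transcripts of a gene share the reads. For Peg3 it was 8.68 to 8.71 kb in the knockouts and 8.69 to 8.70 kb in the controls, for Igf2r 8.89 kb in all 6 libraries, and for Mest 2.56 kb in the knockouts and 2.57 kb in the controls. For these 3 genes, the highest library exceeded the lowest by 0.363%, 0.0377% and 0.475%. Igf2 and Plagl1 varied far more, by 19.8% and 18.5%, where the median over 6689 genes with at least 10 FPKM in every library was 3.28%. Igf2 was at 3.73, 3.80 and 3.74 kb in the knockouts, against 3.17, 3.77 and 3.66 kb in the controls, with Control library 1 alone shorter. Plagl1 was at 4.37, 4.32 and 4.75 kb in the knockouts, against 5.06, 4.27 and 4.66 kb in the controls, so the groups overlapped for both genes. On the FPKM scale, with 0.1 added before taking logs, the difference of Igf2 was 0.38 and those of Peg3 and Plagl1 were 0.77 and 0.83.

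**Figure D4:**
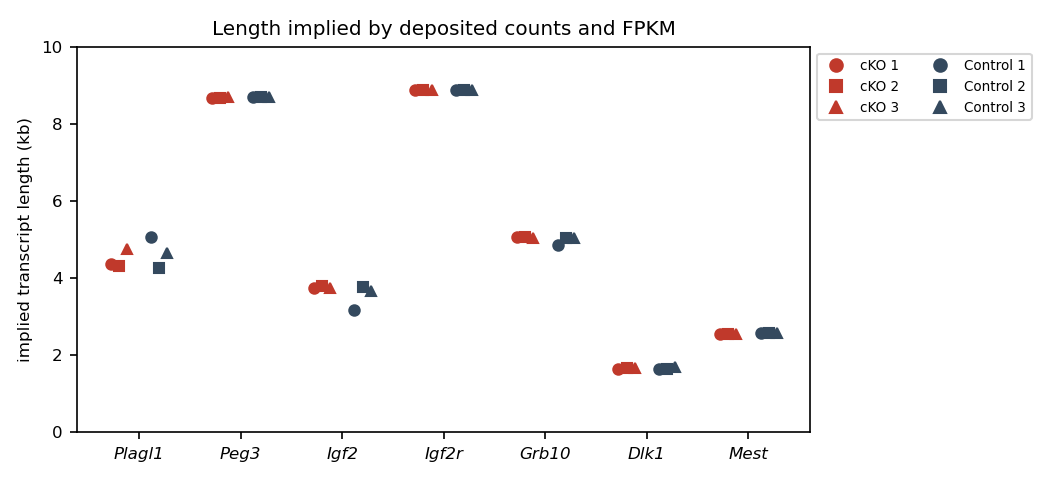
Transcript length in kb (vertical axis, from 0) implied by the deposited counts and FPKM for the 7 imprinted growth genes, cKO libraries in red and left, control libraries dark and right. Peg3, Igf2r and Mest are flat over libraries, Igf2 is shorter in Control library 1 alone at 3.17 kb, and Plagl1 spreads from 4.27 to 5.06 kb.

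In the mouse annotation (GENCODE M21) Mest overlaps Copg2 on the opposite strand, Igf2r overlaps the antisense RNA Airn, and Igf2 overlaps the antisense Igf2os and, on its own strand, the Ins2-Igf2 read-through gene Gm49394. The sources used here do not say whether counting took account of strand, so reads of such pairs cannot be told apart with certainty. Copg2, a coat protein gene of vesicles, differed in the other direction from Mest, at 105, 104 and 108 CPM in the knockouts, against 113, 135 and 124 CPM in the controls (log2 fold change -0.23, SE 0.0966, edgeR adjusted p = 0.112). Copg2 was called lower by edgeR relative to the Sertoli cell genes (-0.62, adjusted p = 0.0327), with total-count scaling (-0.29, 0.0457) and when Control library 1 was omitted (-0.32, 0.00808), and higher relative to the pan-germ-cell genes (1.3, 2.41e-06). The median of all genes was 1.55 in the last of these, above Copg2.

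Other imprinted genes did not move as a block. Of 53 further genes known to be imprinted in at least 1 mouse tissue, 40 were tested, and 6 rose, 5 fell and 29 did not pass (edgeR adjusted p under 0.05), where 11.1% of all tested genes rose and 13.9% fell. Their median log2 fold change was 0.11 where that of all tested genes was 0.03. The split followed the scaling, as did that of all genes. Relative to the Sertoli cell genes 0 were higher and 11 lower (2 higher at an unadjusted p under 0.05, edgeR). In that scaling 34 of all 14424 tested genes were higher and 4326 lower. Relative to the pan-germ-cell genes 34 of the other imprinted genes were higher and 2 lower, where 13458 of all tested genes were higher and 77 lower. Of the 21 tested paternally expressed genes 2 rose and 2 fell (median 0.06), and of the 19 maternally expressed ones 4 rose and 3 fell (median 0.15). Leaving out knockout library 1, 2 or 3 left 3, 3 and 4 that rose and 1, 2 and 3 that fell. Leaving out Control library 1, 2 or 3 gave 14, 7 and 4 that rose and 8, 4 and 3 that fell.

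Zim1, a zinc finger gene beside Peg3 that is expressed from the maternal copy, rose by nearly the same amount as Peg3. It was at 129, 116 and 111 CPM in the knockouts, against 53.8, 71.1 and 73.2 CPM in the controls (log2 fold change 0.84, SE 0.131, edgeR adjusted p = 0.00333). Usp29, the paternally expressed neighbour of Peg3 on its other side, was at 1.11, 2.06 and 1.79 CPM in the knockouts, against 1.16, 2.34 and 1.62 CPM in the controls (log2 fold change -0.04, SE 0.357). The groups overlapped for Usp29 and not for Zim1. Peg10, a gene derived from a retrotransposon and needed in the placenta, rose to 238, 255 and 211 CPM in the knockouts, against 129, 153 and 121 CPM in the controls (log2 fold change 0.80, SE 0.119, edgeR adjusted p = 0.00279). Osbpl5, a lipid transfer protein gene, rose by 0.51 (SE 0.0906, edgeR adjusted p = 0.00544), and Zim1, Peg10 and Osbpl5 passed whichever library was left out.

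The other 3 that rose were less steady. Ppp1r9a, which encodes the actin-binding protein neurabin, rose by 0.83 (edgeR adjusted p = 0.016), and lost the call without Control library 3 (0.75, adjusted p = 0.0723) or knockout library 1 (0.84, 0.0583) or 2 (0.79, 0.0651). Slc38a4, an amino acid transporter gene, rose by 0.52 (edgeR adjusted p = 0.0238), and lost the call without knockout library 1 (0.55, adjusted p = 0.0686), 2 (0.55, 0.0701) or 3 (0.45, 0.0936). Asb4 was near the threshold at 1.24, 1.82 and 1.53 CPM in the knockouts, against 1, 0.558 and 0.421 CPM in the controls (log2 fold change 1.19, edgeR adjusted p = 0.0497). Its call was lost with RLE or total-count scaling, with DESeq2, without the filter and without Control library 2 (1.07, adjusted p = 0.108) or 3 (0.96, 0.16) or knockout library 1 (1.32, 0.0936), 2 (1.04, 0.177) or 3 (1.19, 0.124). None of the 6 passed relative to the Sertoli cell genes, where their adjusted p was 0.105 (Peg10) to 0.655 (Slc38a4, edgeR). Only 34 of all 14424 tested genes were called higher in that scaling.

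Phlda2, a gene that limits placental growth, fell furthest without overlap. It was at 0.195, 0.0587 and 0.0664 CPM in the knockouts, or 3, 1 and 1 counts, against 1.79, 1.12 and 1.62 CPM in the controls, or 34, 20 and 27 counts (edgeR adjusted p = 0.00203). Sfmbt2, a Polycomb group gene, fell to 21.1, 20.0 and 24.2 CPM in the knockouts, against 29.0, 65.6 and 54.0 CPM in the controls (log2 fold change -1.19, edgeR adjusted p = 0.0118), and missed the threshold without knockout library 1 (-1.16, adjusted p = 0.0557) or 2 (-1.13, 0.0554). Relative to the pan-germ-cell genes it turned to 0.39, under the median of all genes of 1.55 in that scaling. Ascl2, a basic helix-loop-helix factor gene, fell by 1.65 on the log2 scale (edgeR adjusted p = 0.0197), and lost the call without Control library 3 (-1.5, adjusted p = 0.0769) or knockout library 1 (-1.66, 0.0753). Nap1l4, a histone chaperone gene, fell by 0.28 (edgeR adjusted p = 0.042), and passed only without Control library 1 among the 6 ways of leaving out 1 library (adjusted p = 0.00477, and 0.0521 to 0.161 in the others).

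Ins2, an insulin gene next to Igf2, differed only through Control libraries 1 and 2. It had 12, 19 and 20 counts in the knockouts, against 786, 1019 and 15 counts in Control libraries 1, 2 and 3. Control library 3 lay within the range of the knockouts, so the groups overlapped, although the edgeR fit called it lower (log2 fold change -4.94, adjusted p = 0.0157). Limma-voom did not (-3.67, adjusted p = 0.286), and edgeR lost the call without knockout library 1 (-4.75, adjusted p = 0.0719), 2 (-4.96, 0.0654) or 3 (-5.11, 0.0598). Igf2 did not follow this split, being higher in Control library 3 than in Control libraries 1 and 2.

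Rtl1 and Dio3, which belong to the imprinted cluster of Dlk1, were at low levels. Rtl1, a retrotransposon-derived gene, was at 3.06, 2.06 and 1.59 CPM in the knockouts, against 1.21, 1.34 and 1.86 CPM in the controls (log2 fold change 0.61, SE 0.327, edgeR adjusted p = 0.201). Dio3, which encodes a deiodinase that inactivates thyroid hormone, was at 0.845, 0.294 and 0.332 CPM in the knockouts, against 0.633, 0.781 and 0.841 CPM in the controls (edgeR adjusted p = 0.359). Klf14 in the cluster of Mest, and Slc22a2 and Slc22a3 in that of Igf2r, were too low to test.

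**Figure D5:**
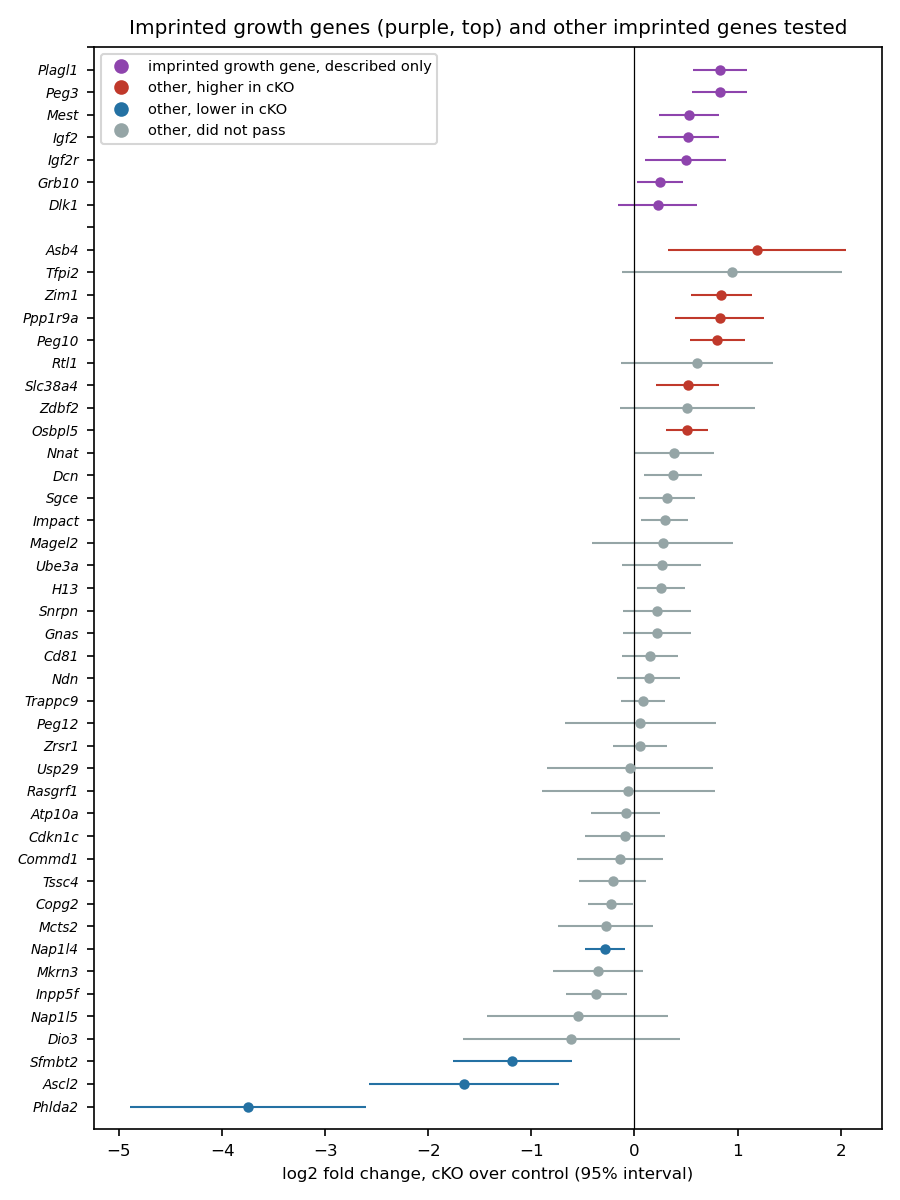
Log2 fold change, cKO over control (horizontal axis), with 95% intervals from edgeR for the 7 imprinted growth genes (purple, top) and the other imprinted genes tested (red rose, blue fell, grey did not pass), leaving out Ins2 at -4.94 for its wide interval. The 7 lie at 0.23 to 0.83, and the others range on both sides of 0, with Phlda2 lowest and Asb4 highest at 1.19.

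Of 13 receptors, binding proteins and partners of IGF2, 3 rose (Igf1, Insr and Igfbp5) and 2 fell (Igfbp2 and Igf2bp1), with a median log2 fold change of 0.28, where 11.1% of all tested genes rose and 13.9% fell. Relative to the Sertoli cell genes edgeR called 0 higher, also at an unadjusted p under 0.05, and 2 lower. In that scaling 34 of all 14424 tested genes were higher and 4326 lower. Relative to the pan-germ-cell genes 12 were higher and 0 lower, also at an unadjusted p under 0.05, where 13458 of all tested genes were higher and 77 lower. Igf2bp1 turned from -0.85 on the log2 scale to 0.69 there (edgeR adjusted p = 0.00156), still under the median of all genes of 1.55. With TMM scaling the 5 passed whichever library was left out, with 3 more that rose without Control library 1 and 2 more without Control library 2. Igf1, the sister growth factor, was at 299, 293 and 302 CPM in the knockouts, against 156, 181 and 196 CPM in the controls (log2 fold change 0.75, SE 0.104, edgeR adjusted p = 0.00227). Igfbp2, which encodes a protein that binds IGF2 outside cells, fell to 18.6, 17.9 and 18.1 CPM in the knockouts, against 45.3, 42.0 and 48.8 CPM in the controls (log2 fold change -1.32, SE 0.0995, edgeR adjusted p = 0.000219). The groups of Igf1 and of Igfbp2 did not overlap. Relative to the Sertoli cell genes, Igf1 was at 0.35 and did not pass (edgeR adjusted p = 0.214), and relative to the pan-germ-cell genes Igfbp2 was at 0.20 and did not pass (0.366). The signalling receptor gene Igf1r was at 179, 153 and 162 CPM in the knockouts, against 117, 172 and 154 CPM in the controls, which overlapped (edgeR adjusted p = 0.447).

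The paralogs of Plagl1 did not pass. Plag1 was at 17.6, 12.9 and 13 CPM in the knockouts, against 6.23, 15.6 and 11.8 CPM in the controls (log2 fold change 0.37, SE 0.293, 95% interval -0.29 to 1.03), and Plagl2 was at 64.6, 53.0 and 62.6 CPM in the knockouts, against 49.1, 74.7 and 68.8 CPM in the controls (-0.09, SE 0.157). Without Control library 1, Plagl2 was lower in the knockouts (-0.28, edgeR adjusted p = 0.0481).

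Of 12 tested genes that set or keep imprints, 1 rose and 5 fell, where 11.1% of all tested genes rose and 13.9% fell. Relative to the Sertoli cell genes edgeR called 0 higher, also at an unadjusted p under 0.05, and 7 lower, where 34 of all 14424 tested genes were higher and 4326 lower. Relative to the pan-germ-cell genes 10 rose and 1 fell, where 13458 of all tested genes rose and 77 fell. Dnmt3b turned to 0.42 there, under the median of all genes of 1.55. Dnmt3b and Ctcfl passed in each fit that left a library out, and no other gene of the list passed when knockout library 1 or 2 or Control library 3 was omitted. Omitting knockout library 3 gave 0 that rose and 4 that fell, omitting Control library 1 gave 2 and 6, and omitting Control library 2 gave 3 and 3. The call of Ctcf was lost with RLE or total-count scaling. The factor gene that rose was Ctcf, whose protein insulates Igf2 from enhancers on the unmethylated maternal copy, by 0.31 (edgeR adjusted p = 0.0401). Its germ-line relative Ctcfl fell to 0.455, 0.470 and 1.26 CPM in the knockouts, against 2.69, 5.13 and 6.91 CPM in the controls (log2 fold change -2.75, edgeR adjusted p = 0.00514). Dnmt3b, a de novo DNA methyltransferase gene, fell to 38.0, 37.2 and 42.2 CPM in the knockouts, against 59.1, 103 and 96.8 CPM in the controls (log2 fold change -1.14, SE 0.19, edgeR adjusted p = 0.00431). The other 3 that fell were Dnmt3l, Kdm1b and Uhrf1, which encode a methyltransferase cofactor, a histone demethylase and a partner of the maintenance methyltransferase. The pan-germ-cell sums given above fell in the same libraries, and their part in these changes was not tested.

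Genes closest to Peg3 and Plagl1 in pattern were named by the root mean square difference of log2 CPM, centred on each gene's mean, over the 6 libraries and 12513 candidate genes. Nearest to Peg3 were Ror1 (0.0466) and Robo2 (0.0486), both cell surface receptor genes, and the zinc finger gene Zfp618 (0.0487). Nearest to Plagl1 were Fam198a (0.0635), Igf1 (0.0644) and the cyclin gene Ccnd2 (0.0743). Plagl1 and Peg3 differed from each other by 0.138, which would place Plagl1 at rank 152 around Peg3 and Peg3 at rank 54 around Plagl1. Dlk1 was the farthest from both among the 7, at 0.451 from Peg3 and 0.406 from Plagl1. These distances share the group difference and the libraries and are a description.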

How the data were processed

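Messenger RNA libraries from whole testes (3 Dcaf2 cKO, 3 control) were grouped by the labels. The deposited table lists counts and FPKM for every gene. Per the submitters' processing notes StringTie 1.3.1 and RSEM were used, without their roles; the aligner, build and annotation are not stated. The deposited counts are whole numbers, taken as estimated counts rounded by the authors, because 3 to 21 genes in a library combined a zero count with a positive FPKM. The FPKM values, which the authors scaled to transcript length and depth, served for levels between genes and for implied transcript length (the count per library total divided by FPKM, in kb). Symbols came from the reference table of gene names (22219 of 22274 IDs). The deposited symbols were not used.

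Genes were kept by filterByExpr (minimum count 10), scaled by TMM and tested with edgeR 4.0.16's quasi-likelihood test (R 4.3.3) without covariates. Benjamini-Hochberg adjustment ran over all 14424 genes at a threshold of 0.05, and log2 fold changes are cKO over control. The procedure was tested on simulated data. The imprinted growth genes and all lists were chosen with earlier results of these data known. Further genes named were the other imprinted genes past the threshold (at most 6 per direction), imprinted neighbours, the 2 with the smallest p of the IGF2 and imprint-setting lists, both PLAG paralogs, Dtl, and the 3 nearest in pattern to Peg3 and to Plagl1 (mean log2 CPM of at least 1). Alternatives were DESeq2 1.42.0, limma-voom (limma 3.58.1), RLE, total-count, Sertoli cell and pan-germ-cell scaling, no filter, a filter of 1 CPM in 3 libraries, a block for the replicate number, leaving out each library, and log2(FPKM + 0.1).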

Additional observations from a re-analysis of the deposited data

How the results depend on the processing

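Of the 7 imprinted growth genes, 4 passed the threshold in the fit reported, 0 with scaling to the Sertoli cell genes, 7 with scaling to the pan-germ-cell genes, and 2 to 6 with 1 library left out. Scaling to the Sertoli cell genes left 34 genes higher and 4326 lower, with 0 other imprinted genes higher and 11 lower, and turned Dlk1 to -0.13, Grb10 to -0.14 and Plag1 to -0.06. Scaling to the pan-germ-cell genes gave 13535 changed genes, 13458 higher and 77 lower, with 36 other imprinted genes changed, 34 higher and 2 lower. It turned the log2 fold changes of Sfmbt2 (0.39), Nap1l4 (1.25), Igfbp2 (0.20), Dnmt3b (0.42), Plagl2 (1.45), Dtl (1.23), Usp29 (1.52), Dio3 (0.90) and Copg2 (1.3) positive, all 9 of them under the median of all genes of 1.55 in that scaling. Leaving out 1 library gave 1355 to 5255 changed genes, 452 to 2392 higher and 903 to 2863 lower, and 4 to 22 other imprinted genes changed, 3 to 14 higher and 1 to 8 lower. Smaller groups also give less power. Total-count scaling gave 1109 genes higher and 2424 lower. The labels do not say whether libraries of the same replicate number are paired. The deviations of same-numbered libraries correlated at -0.07, -0.08 and 0.07, and those of unlike-numbered ones at -0.22 to 0.22. With 3 libraries per group this shows no pairing but cannot exclude it. A fit with the replicate block gave 2822 changed genes, 9 other imprinted genes and 5 of the 7 imprinted growth genes. The log2 fold changes of the 7 kept their sign and moved by less than the SD of the controls in 98 of 112 values under alternatives. The exceptions were all 7 genes relative to the Sertoli cell genes (5 moved further, 2 turned sign) and relative to the pan-germ-cell genes (7 moved further). Leaving out 1 of 3 libraries can hardly shift a group mean by the SD of that group. The values with a library left out therefore say little about steadiness. Depth limits Phlda2, Asb4, Dio3, Usp29 and Rtl1, which had few counts, and Ctcfl, which had few in the knockouts.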
